A study of Mus musculus with 22 samples.

Results

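The Nkain family was described here across 3 brain tissues of the mouse, the cortex, the olfactory bulb and the cerebellum, in levels of 5-methylcytosine (5mC) and 5-hydroxymethylcytosine (5hmC). Its members are Nkain1, Nkain2, Nkain3 and Nkain4, which are 4 of 21755 protein-coding genes annotated on the chromosomes with data, and each was taken at its GENCODE release M 21 span on mm10 (GRCm38). Every 100 kb bin of 5mC and every 1 Mb bin of 5hmC that overlapped a member was read, with other bins that reach within 500 kb of it as flanks. The bins that overlapped a member were 22 of 26327 bins of 5mC and 5 of 2641 bins of 5hmC. All of them were among the 25664 and 2581 bins kept after bins listed at 0 or 1 in any library were left out. The family was chosen by 5mC and 5hmC levels of these files that were already known, so the levels and differences of its members are given as a description and not as evidence of a pattern.

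The mice were C57BL/6 females of 8 weeks with no treatment, and the 3 groups differed only in the tissue. The cortex was the whole cerebral cortex without the hippocampus, and the olfactory bulb and the cerebellum were taken whole. 5mC came from oxBS-seq, in which 5hmC is oxidised so that 5mC alone resists bisulfite, with 3 cortex, 2 olfactory bulb and 2 cerebellum libraries. 5hmC came from TAB-seq, in which 5hmC is shielded by a sugar and 5mC is oxidised away, with 3 libraries per tissue. The replicates were independent mice by the methods of the paper, and the labels give only replicate numbers. RNA-seq was not analysed here, so the tissue labels were not checked against marker genes and no level below speaks of expression. All values are of whole tissue, in which a different mix of cells and a different level within a cell cannot be told apart.

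Nkain proteins are small membrane proteins named for their interaction with the Na+/K+-transporting ATPase, the pump that keeps the sodium and potassium gradients of cells, and are known as partners of its beta 1 subunit and as expressed in brain. 5mC at CpG sites is laid down by DNA methyltransferases and is converted to 5hmC by TET enzymes. 5hmC is abundant in neurons, where it is found mainly in the bodies of genes, and start regions rich in CpG sites usually carry little of either mark.

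All members lie on the minus strand and differ widely in size. Nkain2 (ENSMUSG00000069670.8) spans 1201153 bp at chr10:31689310-32890462, in 11 annotated exon blocks that make up 0.392% of the gene, and covers 13 bins of 100 kb, 11 of them wholly inside the gene. Nkain3 (ENSMUSG00000055761.14) spans 659993 bp at chr4:20118874-20778866 and covers 7 bins, 5 of them wholly inside. Exon blocks make up 1.05% of Nkain3, so nearly all of both genes is intronic. Nkain2 and Nkain3 fill 92.4% and 94.3% of their 100 kb bins. They fill only 60.1% and 66.0% of their 1 Mb bins, so their 5hmC values also cover much DNA outside the gene. Nkain1 (ENSMUSG00000078532.9, chr4:130531602-130574173, 42572 bp) fills 42.6% of its single 100 kb bin and 4.26% of its 1 Mb bin. Nkain4 (ENSMUSG00000027574.15, chr2:180934772-180954699, 19928 bp) fills 19.9% and 1.99%, and its 100 kb bin also overlaps Arfgap1, Birc7, Col20a1 and Ythdf1. The values of Nkain1 and Nkain4, above all those of 5hmC, therefore belong to the bin more than to the gene.

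The members also differ in base composition. The bins of Nkain1 and Nkain4 held 1014 and 996 CpG sites, against a median of 751 over all bins tested. The bins of Nkain2 held 490 on average, from 372 to 696, and those of Nkain3 519, from 367 to 598.

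The start regions are printed because the bins that hold the starts of Nkain2 and Nkain3 had the lowest 5mC of each gene in cortex and olfactory bulb, and because Nkain1 is short enough for its start to lie in the same bin as the whole gene. The RefSeq promoter table for GRCm38.p6 matched 2 of the 4 members, Nkain1 and Nkain2, and not Nkain3 and Nkain4. Each window runs 5′ to 3′ on the minus strand, from 250 bases before to 50 bases after the RefSeq start, with every CG in capitals. The Nkain1 window lies at chr4:130573987-130574286 and the Nkain2 window at chr10:32889866-32890165. The RefSeq starts differ from the GENCODE starts of the spans used here. The Nkain1 window holds the GENCODE start, at 130574173. The Nkain2 window lies wholly inside the GENCODE span, downstream of its start at 32890462.
Nkain1: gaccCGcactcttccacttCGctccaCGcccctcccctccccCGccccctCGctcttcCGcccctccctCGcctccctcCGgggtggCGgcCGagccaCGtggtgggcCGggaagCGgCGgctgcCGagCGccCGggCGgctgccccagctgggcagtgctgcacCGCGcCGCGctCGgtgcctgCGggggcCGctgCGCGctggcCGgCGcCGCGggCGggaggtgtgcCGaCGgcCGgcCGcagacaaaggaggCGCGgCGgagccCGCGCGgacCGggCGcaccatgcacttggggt
Nkain2: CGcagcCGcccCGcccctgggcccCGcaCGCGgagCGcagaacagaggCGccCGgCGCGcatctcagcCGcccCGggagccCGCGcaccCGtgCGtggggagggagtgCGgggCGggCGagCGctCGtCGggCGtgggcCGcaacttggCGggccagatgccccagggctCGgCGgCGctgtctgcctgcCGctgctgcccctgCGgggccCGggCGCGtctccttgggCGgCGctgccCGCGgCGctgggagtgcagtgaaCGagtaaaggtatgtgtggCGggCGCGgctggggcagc
The motif searched was CG, which reads the same on both strands. The Nkain1 window held 44 and the Nkain2 window 43, and 2.25% and 2.61% of 32851 windows of this length in the table held at least as many, against a median of 7. These 300 bases are a small piece of a 100 kb bin, so the level of the bin is not the level of the window.

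Levels are fractions from 0 to 1, deposited per bin with no coverage, so the depth behind each is unknown and errors are SDs between libraries. Averaged over all bins, 5mC stood at 0.677 in cortex, 0.707 in the olfactory bulb and 0.731 in cerebellum, and 5hmC at 0.163, 0.145 and 0.0949. Libraries of the same tissue correlated across bins at r of 0.947 to 0.982 for 5mC and 0.994 to 0.998 for 5hmC, and libraries of different tissues at 0.801 to 0.918 and 0.783 to 0.944. Tissues were compared in all bins with limma on log2(level/(1 − level)), called below the log2 ratio, with a Benjamini-Hochberg adjusted p under 0.05 counted as called. Because large shares of all bins were called between tissues, the share called over all bins is given beside each count. It is not given for alternative settings other than centring. The median log2 ratio change over all bins was 0.43 for 5mC and -0.97 for 5hmC in cerebellum against cortex, 0.19 and -0.72 in cerebellum against olfactory bulb, and 0.22 and -0.24 in olfactory bulb against cortex. Counts are therefore also given after each library was centred on its own median.

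In 5hmC, Nkain2 and Nkain3 were far lower in cerebellum than in cortex, and Nkain1 and Nkain4 were only slightly lower. Against olfactory bulb Nkain2 was again far lower, whereas the fall in level of Nkain3 was near the median over all bins. Nkain2 lay in 2 bins of 1 Mb, which together averaged 0.183 ± 0.0127 in cortex (SD, n = 3), 0.157 ± 0.00517 in olfactory bulb (SD, n = 3) and 0.0585 ± 0.00136 in cerebellum (SD, n = 3). The bin at chr10:32000001-33000000, which holds the start and most of the gene, read 0.191, 0.207 and 0.180 in the cortex libraries, 0.165, 0.173 and 0.170 in olfactory bulb, and 0.0404, 0.0409 and 0.0434 in cerebellum. Its cerebellum libraries sat far below all the others. The mean fell by 0.151 from cortex to cerebellum, and 0 of 2581 bins had a lower value of this difference. Against olfactory bulb the mean fell by 0.128, and 27 bins had a lower value.

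Nkain2 fills 89.0% of the bin of its start but only 31.1% of the bin at chr10:31000001-32000000, which holds the rest of the gene. The 2 bins also overlap Hddc2, Rnf217 and Tpd52l1. The bin at chr10:31000001-32000000 read 0.170, 0.186 and 0.163 in cortex, 0.138, 0.151 and 0.144 in olfactory bulb, and 0.0746, 0.0752 and 0.0768 in cerebellum. Its order of tissues was the same, with a smaller gap. The mean fell by 0.0972 from cortex to cerebellum, and 381 of 2581 bins had a lower value. The cortex levels of the 2 bins were much closer to each other, at 0.193 and 0.173, than their cerebellum levels, at 0.0415 and 0.0755.

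Nkain3 had a single bin of 1 Mb, of which the gene fills 66.0%. It read 0.168, 0.177 and 0.155 in cortex, 0.117, 0.128 and 0.125 in olfactory bulb, and 0.0617, 0.0636 and 0.0664 in cerebellum. The 3 tissues did not overlap, and the olfactory bulb libraries stood clearly apart from the cortex libraries. The mean fell by 0.0435 from cortex to olfactory bulb, where 100 of 2581 bins had a lower value, and by 0.103 from cortex to cerebellum, where 247 had. For cerebellum minus olfactory bulb the difference was -0.0592, and 978 bins had a lower value, beside a median difference of -0.0498 over all bins.

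The 1 Mb bin of Nkain1 read 0.209, 0.221 and 0.190 in cortex, 0.189, 0.198 and 0.188 in olfactory bulb, and 0.180, 0.174 and 0.181 in cerebellum. Cortex and olfactory bulb overlapped, and cerebellum was the lowest by a small margin. Its cerebellum mean of 0.178 was exceeded by 93 of 2581 bins. The bin of Nkain4 read 0.165, 0.176 and 0.158 in cortex, 0.148, 0.152 and 0.145 in olfactory bulb, and 0.127, 0.124 and 0.127 in cerebellum. The tissues of Nkain4 did not overlap. These 2 bins also overlap 15 and 26 other protein-coding genes.

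**Figure D1:**
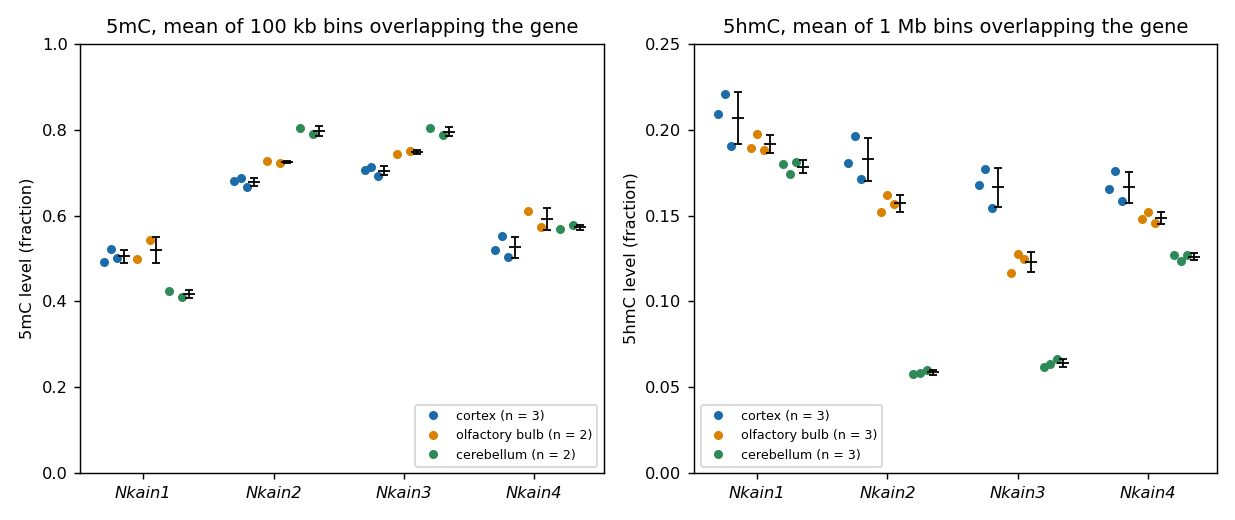
Mean 5mC level of the 100 kb bins (left) and mean 5hmC level of the 1 Mb bins (right) that overlap each Nkain gene, as fractions. Each coloured point is 1 library, and the black mark and bar beside it are the tissue mean and SD; Nkain2 and Nkain3 have the highest 5mC and the lowest 5hmC in cerebellum, at 0.797 and 0.0585 for Nkain2, and Nkain1 has its lowest 5mC there, at 0.418.

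The libraries of cerebellum lay below all those of cortex in 5 of the 5 member bins of 5hmC, as in 97.5% of all bins, and below all those of olfactory bulb in 5, as in 92.6%. The olfactory bulb libraries lay below all those of cortex in 4, as in 68.2% of all bins. By limma, 5 of the 5 member bins were called lower in cerebellum than in cortex, a comparison in which 98.1% of all bins were called and 97.6% were called lower. In cerebellum against olfactory bulb 4 of 5 were called lower, beside 93% of all bins called and 91.8% lower, and in olfactory bulb against cortex 4 of 5, beside 70.9% and 67.7%. The bin not called in the latter pairs was that of Nkain1. The direction of Nkain1 and Nkain4 was that of the whole libraries. After centring, in cerebellum against cortex, both bins of Nkain2 and the bin of Nkain3 were called lower, with median log2 ratio changes of -0.86 and -0.51, whereas the bins of Nkain1 and Nkain4 were called higher, at 0.78 and 0.57. The split was thus 0 higher and 5 lower as deposited, and 2 higher and 3 lower after centring, when 50.3% of all bins were called higher and 40.1% lower. The same split of 2 and 3 was found against olfactory bulb after centring, beside 50.9% and 39.1% of all bins, and 1 higher and 2 lower in olfactory bulb against cortex, beside 36.2% and 33%.

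**Figure D2:**
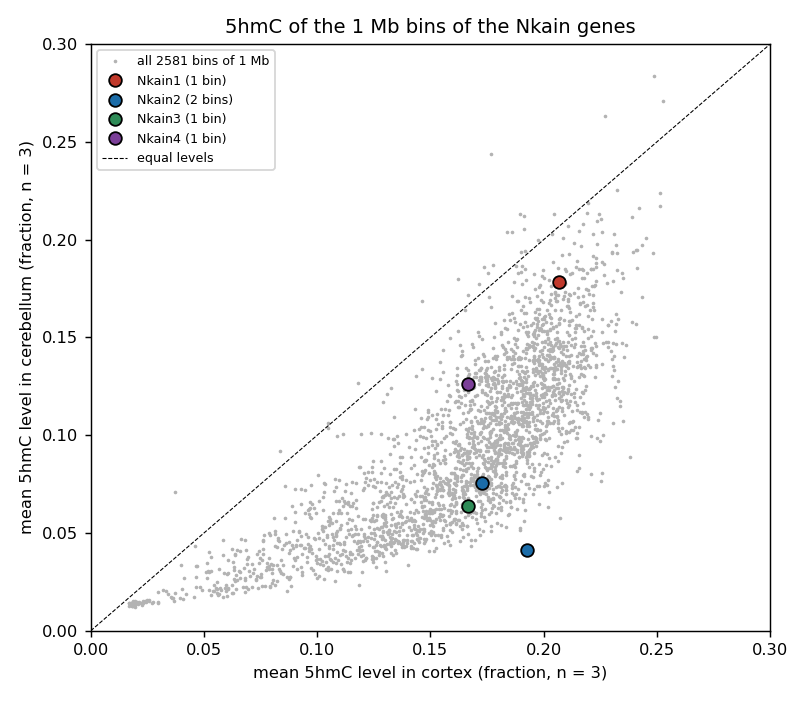
Mean 5hmC level in cerebellum (y, fraction, n = 3 libraries) against cortex (x, fraction, n = 3 libraries) for 2581 bins of 1 Mb in grey, with the bins of the Nkain genes as large points and the line of equal levels dashed. The lower Nkain2 point, at 0.193 in cortex and 0.0415 in cerebellum, lies below the grey cloud, and the Nkain1 point, at 0.207 and 0.178, lies close to the line.

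In 5mC, Nkain2 and Nkain3 rose in order from cortex to olfactory bulb to cerebellum, whereas Nkain1 had its lowest level in cerebellum. The Nkain2 mean over 13 bins was 0.681, 0.686 and 0.668 in the cortex libraries, 0.727 and 0.724 in olfactory bulb, and 0.805 and 0.789 in cerebellum. The tissues did not overlap. The cortex mean was 0.678 ± 0.00978 (SD, n = 3), the olfactory bulb mean 0.725 ± 0.00203 (SD, n = 2) and the cerebellum mean 0.797 ± 0.0114 (SD, n = 2), and cerebellum was 0.119 above cortex and 0.0720 above olfactory bulb.

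The Nkain3 mean over 7 bins was 0.707, 0.714 and 0.693 in cortex, 0.744 and 0.750 in olfactory bulb, and 0.804 and 0.788 in cerebellum. The tissues did not overlap, and their order was that of Nkain2. Cerebellum was 0.0908 above cortex and 0.0483 above olfactory bulb. In cerebellum Nkain2 and Nkain3 had nearly the same level, 0.797 and 0.796, with SDs of 0.0114 and 0.0112, whereas in cortex Nkain3 was higher than Nkain2, at 0.705 against 0.678.

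The bin of Nkain1 read 0.492, 0.522 and 0.502 in cortex, 0.499 and 0.542 in olfactory bulb, and 0.424 and 0.411 in cerebellum. Both cerebellum libraries were below every other library, and cortex and olfactory bulb overlapped. The cerebellum mean was below that of cortex, with a difference of -0.0876, and below that of olfactory bulb, with one of -0.103. Of 25664 bins, 187 had a lower cerebellum level than this bin and 233 a lower difference from cortex. It was the sole member bin with a lower 5mC level in cerebellum than in cortex.

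The bin of Nkain4 read 0.521, 0.552 and 0.504 in cortex, 0.610 and 0.574 in olfactory bulb, and 0.569 and 0.577 in cerebellum. Both olfactory bulb and cerebellum were above cortex, and they overlapped each other. The difference between cerebellum and olfactory bulb, -0.0187, was within the spread of the libraries.

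The cerebellum libraries lay above all those of cortex in 21 of the 22 member bins of 5mC, as in 76.3% of all bins, and below them in 1, as in 5.62%. They lay above those of olfactory bulb in 20, as in 58.6%, and below them in 1, as in 16.2%, and the olfactory bulb libraries lay above those of cortex in 20, as in 61%. By limma, 22 of the 22 bins were called between cerebellum and cortex, 21 higher in cerebellum and 1, that of Nkain1, lower, beside 76.4% of all bins called, 71.9% higher and 4.44% lower. After centring, 12 of the 13 bins of Nkain2 and 5 of the 7 of Nkain3 were called higher, the bin of Nkain1 lower and the bin of Nkain4 neither, with a log2 ratio change of -0.13, beside 50% of all bins called. Between cerebellum and olfactory bulb 17 bins were called higher and 1 lower, beside 43% of all bins called, 35.3% higher and 7.69% lower. Fewer member bins were called in that comparison without cerebellum replicate 1, whose 5mC was the higher of the pair. That fit leaves 1 cerebellum library, with a Nkain2 difference of 0.0640, and its share of all bins called is not given. After centring the split became 14 higher and 2 lower, beside 22.1% and 21.3% of all bins, with the bin of Nkain4 now among the lower.

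Between olfactory bulb and cortex 14 of the 22 bins were called, all higher in olfactory bulb, 8 of them in Nkain2, 5 in Nkain3 and 1 in Nkain4, beside 39.7% of all bins called and 37.6% called higher. This count rested on both olfactory bulb libraries and on the level of the whole libraries. It was 3 after centring, when 18.7% of all bins were called. It was also lower with either olfactory bulb library left out, which leaves 1 library in that tissue. The share of all bins called is not given for those fits. The Nkain2 difference was 0.0452 without replicate 1 and 0.0481 without replicate 2. The standard error of limma was nearly the same in all member bins, 0.117 for comparisons with cortex, since the spread was estimated over all bins, and a call therefore does not reflect the spread of a bin's own libraries.

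Along Nkain2, cerebellum differed from cortex and from olfactory bulb most near the start of the gene and less toward its end. The bin that holds the start, chr10:32800001-32900000, read 0.561, 0.579 and 0.572 in cortex, 0.612 and 0.609 in olfactory bulb, and 0.742 and 0.730 in cerebellum. It was the lowest bin of the gene in cortex and in olfactory bulb, and not in cerebellum. There the lowest was the bin that holds the end, chr10:31600001-31700000, at 0.708 ± 0.0412 (SD, n = 2), of which the gene fills 10.7% and which also overlaps Rnf217.

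The difference between cerebellum and cortex was highest in the next bin from the start, chr10:32700001-32800000, which read 0.658, 0.680 and 0.631 in cortex, 0.721 and 0.715 in olfactory bulb, and 0.824 and 0.829 in cerebellum. Cerebellum was there 0.170 above cortex, and 278 of 25664 bins had a higher value. The difference was lowest, at 0.0743, in chr10:31700001-31800000, the last bin wholly inside the gene. That bin had the highest level of the gene in cortex, 0.742, and in olfactory bulb, 0.781, and read 0.816 in cerebellum. The cortex level thus ranged from 0.571 to 0.742 over the 13 bins and the cerebellum level from 0.708 to 0.828.

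Between olfactory bulb and cortex the highest difference in Nkain2, 0.0648, was in chr10:32600001-32700000 and the lowest, 0.0294, in chr10:31900001-32000000. Between cerebellum and olfactory bulb the highest, 0.126, was in the bin of the start and the lowest, 0.0346, in chr10:31700001-31800000. The highest cerebellum level was in chr10:32100001-32200000, at 0.828.

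Across the 13 bins of Nkain2 the difference between cerebellum and cortex fell with distance from the start, with Pearson's r of -0.895 and Spearman's rho of -0.863, and r of -0.868 over 12 bins without the bin of the start. The same r was -0.706 for cerebellum minus olfactory bulb and -0.591 for olfactory bulb minus cortex, whose value in the bin of the start, 0.0397, was close to the 0.0378 of the bin of the end. Between the difference of cerebellum and cortex and the number of CpG sites in the bin r was -0.346. The bins are of 1 gene, share the libraries and border each other, so these values are a description. The 6 bins nearest the start minus the 6 nearest the end gave -0.0429 ± 0.0101 in cortex (SD, n = 3), -0.0235 ± 0.00360 in olfactory bulb (SD, n = 2) and 0.00222 ± 0.00842 in cerebellum (SD, n = 2). The near-start bins were below the near-end bins in every library of cortex and olfactory bulb, and the cerebellum libraries lay on both sides of 0. Between level and distance from the start r was 0.540 in cortex and 0.364 in olfactory bulb. Without the bin of the start it was 0.338 and 0.0314, so in olfactory bulb the gradient lay mostly in that bin.

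Nkain3 had a like course over fewer bins. Its start bin, chr4:20700001-20800000, read 0.645, 0.650 and 0.654 in cortex, 0.701 and 0.698 in olfactory bulb, and 0.753 and 0.738 in cerebellum, and was the lowest bin of the gene in each tissue. The highest in each tissue was chr4:20200001-20300000, at 0.740, 0.778 and 0.832. Cerebellum was most above cortex in chr4:20600001-20700000, the next bin from the start, by 0.123, where olfactory bulb was also most above cortex, by 0.0676. Both differences were lowest in chr4:20300001-20400000, at 0.0607 and 0.0252.

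Between cerebellum and olfactory bulb the difference in Nkain3 ran from 0.0350 in the bin of the end, chr4:20100001-20200000, to 0.0622 in chr4:20500001-20600000. Across the 7 bins r between the difference of cerebellum and cortex and the distance from the start was -0.690 and rho -0.714. The 3 bins nearest the start minus the 3 nearest the end gave -0.0357 ± 0.0124 in cortex (SD, n = 3), -0.0126 ± 0.0110 in olfactory bulb (SD, n = 2) and 0.000111 ± 0.0102 in cerebellum (SD, n = 2). As in Nkain2, the near-start bins were below the near-end bins in every cortex and olfactory bulb library, and the cerebellum libraries lay on both sides of 0. Between level and distance from the start r was 0.676 in cortex and 0.367 in olfactory bulb. Without the bin of the start it was 0.390 and -0.205.

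**Figure D3:**
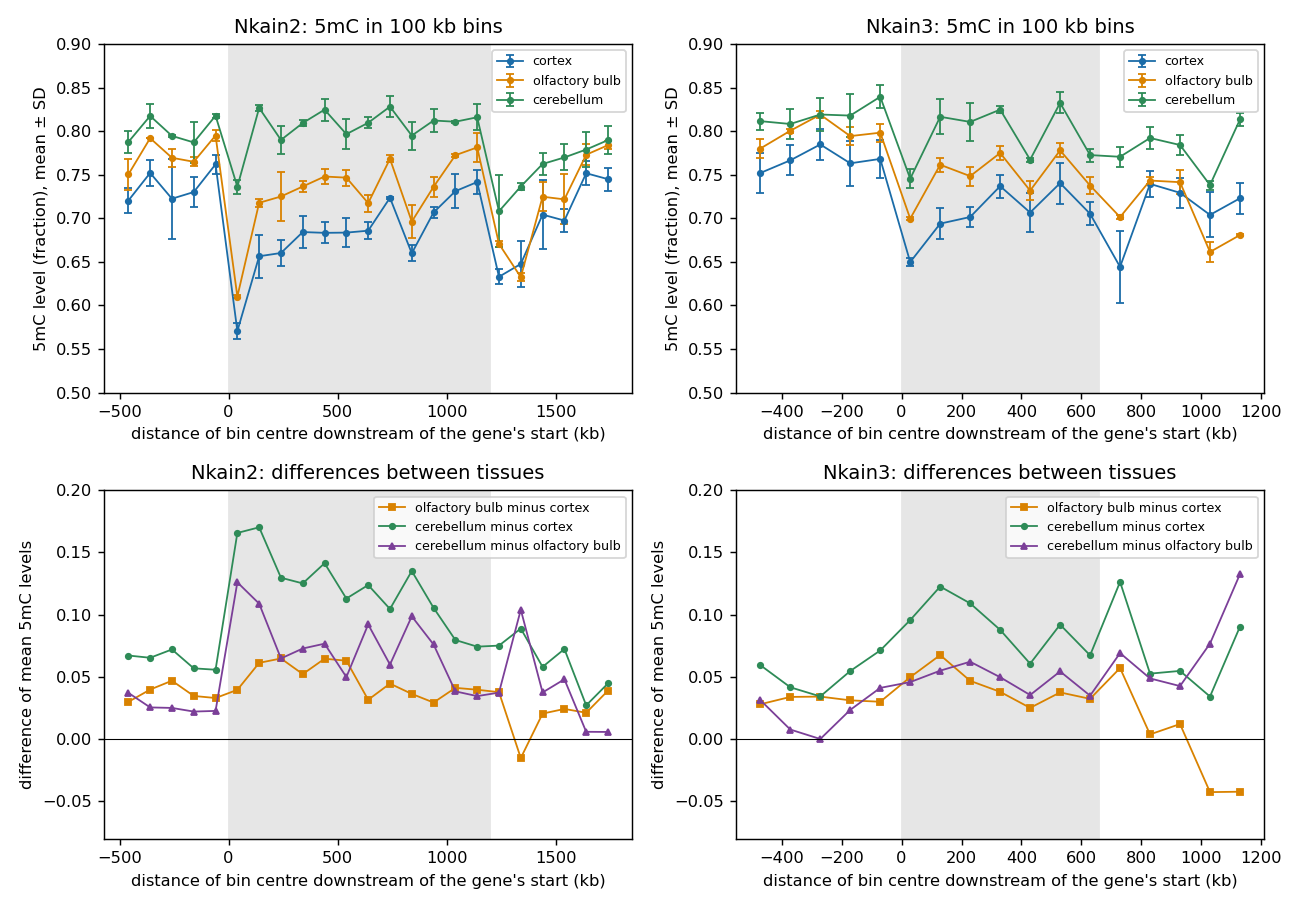
5mC level (top, fraction, mean ± SD of 3 cortex, 2 olfactory bulb and 2 cerebellum libraries) and difference of the tissue means (bottom) in 100 kb bins along Nkain2 (left) and Nkain3 (right) with their flanks, against the distance in kb of the bin's centre from the gene's start. The shaded span is the gene; within Nkain2 the difference of cerebellum and cortex goes from 0.166 in the bin of the start and 0.170 in the next to 0.0743 near the end.

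Against its flanks, Nkain2 was lower in 5mC in cortex and olfactory bulb and higher in cerebellum. The gene minus its flanks was -0.0448 ± 0.00601 in cortex (SD, n = 3), -0.0256 ± 0.00945 in olfactory bulb (SD, n = 2) and 0.0130 ± 0.000560 in cerebellum (SD, n = 2). The sign was the same in every library of a tissue. With flanks of 200 kb the values were -0.0325, -0.00417 and 0.0213, and with flank bins that overlap no protein-coding gene -0.0744, -0.0588 and 0.00170. In 5hmC the bins of Nkain2 were above the flank bin in all 9 libraries, by 0.0563 ± 0.00342 in cortex (SD, n = 3), 0.0504 ± 0.000855 in olfactory bulb (SD, n = 3) and 0.0177 ± 0.00122 in cerebellum (SD, n = 3). With flanks of 1 Mb the cerebellum value was -0.000974.

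Nkain3 minus its flanks was -0.0326 ± 0.00797 in 5mC of cortex (SD, n = 3), -0.00466 in the olfactory bulb and -0.00381 in cerebellum. For the latter pair of tissues, bins wholly inside the gene alone gave 0.00686 and 0.0108, and flank bins that overlap no protein-coding gene gave -0.0510 and -0.0236. In 5hmC its bin was above the flanks by 0.0217 ± 0.00346 in cortex (SD, n = 3), level with them in olfactory bulb, at -0.00188 ± 0.00347 (SD, n = 3), and below them in cerebellum, at -0.00873 ± 0.00309 (SD, n = 3).

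The bin of Nkain1 was below its flanks in 5mC in all libraries, by far the most in cerebellum, at -0.0843 ± 0.0151 in cortex (SD, n = 3), -0.108 ± 0.0410 in olfactory bulb (SD, n = 2) and -0.234 ± 0.00597 in cerebellum (SD, n = 2). Its flanks, unlike the bin itself, were higher in cerebellum than in cortex, at 0.652 against 0.590. The only kept flank bin that overlaps no protein-coding gene, chr4:131000001-131100000, gave -0.198, -0.207 and -0.371. That bin had the highest 5mC of the kept flank bins in each tissue. One of its 10 flank bins was left out for a level of 0 or 1. In 5hmC the bin was 0.0139 above its flank in cortex, -0.000295 from it in the olfactory bulb and 0.0256 above it in cerebellum.

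The bin of Nkain4 minus its flanks in 5mC was at -0.0187 ± 0.00733 in cortex (SD, n = 3), 0.0134 ± 0.0103 in olfactory bulb (SD, n = 2) and 0.00255 ± 0.0135 in cerebellum (SD, n = 2). With flanks of 200 kb the values were 0.0269, 0.0773 and 0.0214. The only flank bin that overlaps no protein-coding gene, chr2:180800001-180900000, gave 0.0262, 0.154 and 0.0252, and it is also among the 200 kb flanks. In 5hmC it was above its flank in cortex and olfactory bulb, by 0.0108 and 0.0181, and below it in cerebellum, at -0.0175. With flanks of 1 Mb the cortex and olfactory bulb values were -0.0103 and -0.0318.

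**Figure D4:**
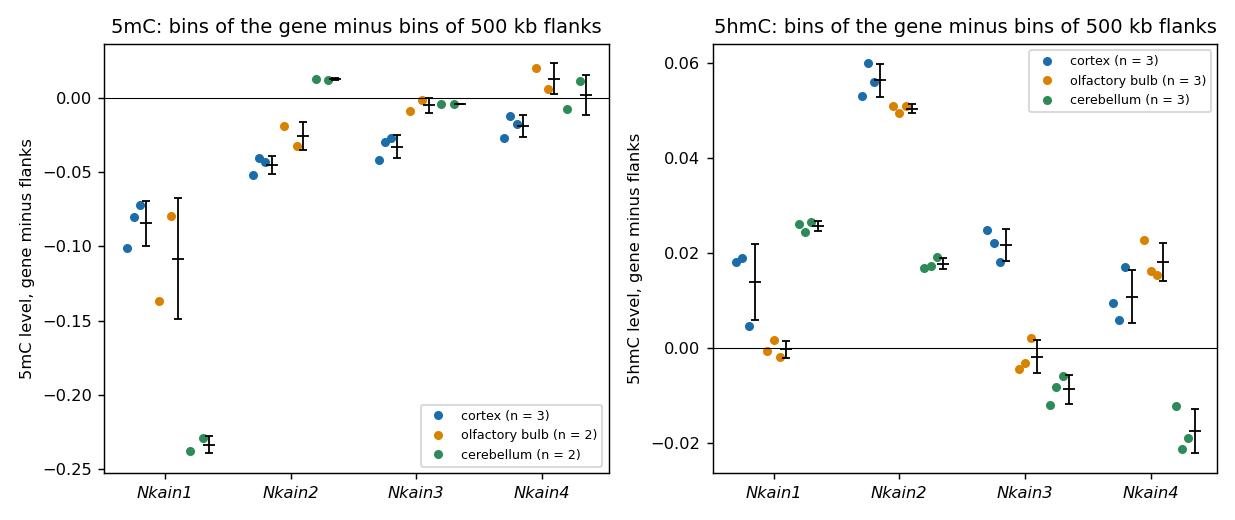
Mean level of the bins of each Nkain gene minus the mean of its flank bins, which reach within 500 kb of the gene, for 5mC (left) and 5hmC (right), as differences of fractions. In 5hmC the flank is 1 whole bin of 1 Mb upstream of the start for Nkain1, Nkain2 and Nkain4, and 2 bins for Nkain3. Each coloured point is 1 library and the black mark and bar are the tissue mean and SD; for 5mC, Nkain1 in cerebellum lies lowest, at -0.234, and Nkain2 crosses 0 between olfactory bulb, at -0.0256, and cerebellum, at 0.0130.

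The sum of both marks differed less between tissues than either mark in the bins of every member, by a small margin at Nkain1 and Nkain4. Over all bins the marks also went opposite ways from cortex to cerebellum. Mean 5mC was 0.677 and 0.731, and mean 5hmC was 0.163 and 0.0949, so this was not particular to the members. In the 1 Mb bins of Nkain2 the sum of mean 5mC and mean 5hmC was 0.877 ± 0.0151 in cortex, 0.890 ± 0.00531 in the olfactory bulb and 0.848 ± 0.0110 in cerebellum, with the SDs of the 2 assays, which are separate libraries, combined as the root of their summed squares. 5hmC made up 20.8%, 17.7% and 6.90% of it. In Nkain3 the sum was 0.877 ± 0.0177, 0.876 ± 0.00643 and 0.864 ± 0.0107, and 5hmC made up 19.0%, 14.1% and 7.40%. The share of 5hmC in cerebellum was thus well under that in cortex in both genes. In the bin of Nkain1 the sum was 0.774, 0.798 and 0.789 with a share of 26.7%, 24.0% and 22.6%, and in that of Nkain4 0.707, 0.717 and 0.692 with 23.6%, 20.7% and 18.2%.

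Among 200 protein-coding genes with at least 5 bins of 100 kb wholly inside them, the body of Nkain2 had a 5mC level of 0.811 in cerebellum, which 10 genes exceeded, and that of Nkain3 0.810, which 11 exceeded. The cerebellum minus cortex difference was 0.118 in Nkain2 and 0.0944 in Nkain3, which 48 and 83 of the genes exceeded, against a median of 0.0859. The genes nearest to Nkain2 in mean absolute difference of body 5mC over the 7 oxBS-seq libraries were Cntn5, at 0.00521, then Dcc, Cdh12, Mgat4c and Lrrtm4, at 0.00857. Cntn5, a contactin, read 0.687 in cortex, 0.737 in the olfactory bulb and 0.808 in cerebellum, against 0.692, 0.740 and 0.811 for Nkain2. Those nearest to Nkain3 were Lrp1b, at 0.00554, then Dpyd, Alk, Sgcz and Gpc6, at 0.00831. The members were less near to each other, at 0.0159, with 28 genes nearer to Nkain2 and 23 nearer to Nkain3.

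Genes of beta subunits and regulators of the pump were read in the same way. The list held 11 genes for the beta subunits (Atp1b1 to Atp1b4) and the small FXYD regulators (Fxyd1 to Fxyd7), which lie in 9 distinct bins of 5mC and 7 of 5hmC. By limma, 5 bins of 5mC were called in cerebellum against cortex, beside 76.4% of all bins, and 3 in cerebellum against olfactory bulb, beside 43%, all of them higher, and 1 higher and 2 lower in olfactory bulb against cortex, where 37.6% of all bins were called higher and 2.18% lower. After centring the calls were 4, all lower, then 2 higher and 2 lower, then 2, both lower, beside 50%, 43.4% and 18.7% of all bins called, so the direction in cerebellum against cortex depended on the level of the whole libraries. The median difference over the 9 bins was 0.0452 between cerebellum and cortex, 0.0179 between cerebellum and olfactory bulb and 0.00646 between olfactory bulb and cortex, against 0.0585, 0.0248 and 0.0307 over all bins and 0.105, 0.0547 and 0.0405 over the member bins.

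With the bins of a gene averaged, Atp1b1, the beta 1 subunit, had the highest 5mC difference of the genes listed in cerebellum against cortex, 0.0965, and against olfactory bulb, 0.170, although single bins of the list reached 0.0980 and 0.188. Its 100 kb bin read 0.577 ± 0.0170 in cortex (SD, n = 3), 0.503 ± 0.0163 in olfactory bulb (SD, n = 2) and 0.673 ± 0.0385 in cerebellum (SD, n = 2). Unlike Nkain2, it was lower in olfactory bulb than in cortex, by a difference of -0.0739, the lowest of these gene means, and the lowest single bin of the list was at -0.0904. The highest gene mean in that pair, 0.0525, was in the bin shared by Fxyd1, Fxyd3, Fxyd5 and Fxyd7. The lowest gene means were -0.00383 in Atp1b4 for cerebellum against cortex and -0.0282 in Atp1b3 for cerebellum against olfactory bulb.

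In 5hmC all 7 bins of the list were called lower in cerebellum than in cortex and than in olfactory bulb, and 4 lower in olfactory bulb than in cortex, beside 97.6%, 91.8% and 67.7% of all bins called lower. After centring 4 were called higher and 1 lower, 5 higher and 1 lower, and 3 higher and 2 lower, beside 50.3% and 40.1%, 50.9% and 39.1%, and 36.2% and 33% of all bins. The median differences were -0.0470, -0.0311 and -0.0103, against -0.0708, -0.0498 and -0.0198 over all bins. Atp1b1 read 0.182 ± 0.0106 in cortex, 0.185 ± 0.00761 in the olfactory bulb and 0.0953 ± 0.00227 in cerebellum, each over 3 libraries, a difference of -0.0871 from cortex and -0.0894 from olfactory bulb, the lowest of the list in both. The differences nearest to 0 were -0.0233, in the bin shared by Fxyd2 and Fxyd6, and -0.0169, in that of Fxyd1. Between olfactory bulb and cortex the values ran from -0.0296 in Fxyd4 to 0.00234 in Atp1b1.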

How the data were processed

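The authors mapped the reads to mm10 with Bismark, used a binomial model to call modified CpG sites, and deposited the level per bin of 100 kb (5mC) or 1 Mb (5hmC) as a fraction, without coverage, in each of 16 libraries. How sites were combined into a bin is not given in the sources used here. Groups came from the labels. Bins at 0 or 1 in any library of a mark were left out. A member's level is the unweighted mean of the bins overlapping it, and flanks are the other bins that reach within 500 kb. In 5hmC this is a single 1 Mb bin, upstream of the start, for Nkain1, Nkain2 and Nkain4, and 2 bins for Nkain3. Tissues were compared by limma (version 3.58.1, under R 4.3.3) applied to log2(level/(1 − level)), in a single fit of 3 tissues for each mark and Benjamini-Hochberg adjustment over all bins, a procedure tested on simulated data. Python 3.11.15, numpy 2.4.6, pandas 2.3.3, scipy 1.17.1 and matplotlib 3.10.9 did the rest. The members, the list of pump genes and the tests were chosen with earlier results of these data known. Named were the members, for those over 300 kb the bins of the start, end, and extreme levels and differences, the 5 genes nearest in body 5mC, and the pump genes with extreme differences and Atp1b1. The alternatives were centring, the fraction scale, keeping every bin at limits of 0.001 and 0.999, the trend and robust options, a replicate block, other flanks, bins wholly inside genes, weights by gene length or CpG sites, and leaving out each library. The RNA-seq samples were not analysed here, and some genes of the pump list are not reported here.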

Additional observations from a re-analysis of the deposited data

Results flagged for a closer look

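The gene minus its flanks had opposite signs in 2 tissues for some members, with every library of a tissue on the same side of 0, and in each of these the difference between the tissues was not tested. In 5mC, Nkain2 was at -0.0448 in cortex and -0.0256 in olfactory bulb against 0.0130 in cerebellum, and the signs held with flanks of 200 kb, with flank bins that overlap no protein-coding gene and with bins wholly inside the gene alone. In 5mC, the bin of Nkain4 was at -0.0187 in cortex against 0.0134 in olfactory bulb, and the cortex value turned to 0.0269 with flanks of 200 kb. It was 0.0262 with the only flank bin that overlaps no protein-coding gene, which is also among the 200 kb flanks. In 5hmC, Nkain3 was at 0.0217 in cortex against -0.00873 in cerebellum. In 5hmC, the bin of Nkain4 was at 0.0108 in cortex and 0.0181 in olfactory bulb against -0.0175 in cerebellum, and the values of cortex and olfactory bulb turned negative with flanks of 1 Mb.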

How the results depend on the processing

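Over 74 results and 416 alternatives, 46 moved beyond the spread, 17 reversed and 4 were weaker. The other 349 stayed within the spread or, for counts, close to the main count with the same majority direction. Single bins could still turn, as in 5hmC of cerebellum against cortex, where centring changed 0 higher and 5 lower to 2 and 3. Some alternatives could not differ. These included weights by gene length where a member has 1 bin, the replicate block for 5hmC levels, and flanks of 1 Mb for Nkain3. The depth is unknown, so precision rests on 2 or 3 libraries per tissue, and with 1 library left in a tissue the lone library is assumed to vary like the others. With the fraction scale, with all bins kept and with trend and robust options the called member bins of 5mC numbered 10 to 14 for olfactory bulb against cortex, 21 or 22 for cerebellum against cortex and 16 to 18 for cerebellum against olfactory bulb, and those of 5hmC 4 or 5. Leaving out each library gave 2 to 14 called bins for 5mC of olfactory bulb against cortex, and 11 to 21 for cerebellum against olfactory bulb. Centring gave 3 for the former. The cause was not tested.

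Replicate numbers gave no uniform pairing of the libraries across tissues. Same-numbered 5hmC libraries deviated together with r of 0.126, 0.344 and 0.250 between olfactory bulb and cortex. Between cerebellum and cortex r was -0.0706, -0.229 and -0.181, and between cerebellum and olfactory bulb 0.0743, -0.130 and -0.168. For 5mC r was -0.0906 to 0.0158, but 2 libraries of a tissue deviate as mirror images, so these values cannot decide on a pairing. With the replicate block the called 5mC bins were 13 for olfactory bulb against cortex, 21 for cerebellum against cortex and 21 for cerebellum against olfactory bulb, and with the numbers in the deposited library names 19, 22 and 17. The 5hmC counts were 4, 5 and 4 with the block. Shares of all bins called are not given for the fits with a block, so these counts do not set the members apart.

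Centring on library medians moved 5mC differences, given for olfactory bulb against cortex, cerebellum against cortex and cerebellum against olfactory bulb, to 0.0146, 0.0623 and 0.0477 in Nkain2 and to 0.0104, 0.0343 and 0.0239 in Nkain3. In cerebellum against cortex it moved Nkain1 to -0.144 and reversed Nkain4, to -0.00895. For 5hmC in the same order it gave 0.00767, 0.0532 and 0.0455 in Nkain1, the last pair reversed, -0.00279, -0.0426 and -0.0398 in Nkain2, -0.0206, -0.0211 and -0.000436 in Nkain3, and 0.00486, 0.0410 and 0.0361 in Nkain4, all reversed. For the pump genes the direction of most calls reversed, with 4 bins of 5mC called in cerebellum against cortex, and 5, 5 and 6 of 5hmC in the order above. The distances that name the genes nearest to Nkain2 and Nkain3 cannot change with centring, since a shift of a whole library cancels in them.

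Gene minus flanks in 5mC is given for cortex, olfactory bulb and cerebellum in that order. Flanks of 200 kb gave -0.0587, -0.0589 and -0.204 in Nkain1, -0.0325, -0.00417 and 0.0213 in Nkain2, -0.0239, -0.0119 and -0.00937 in Nkain3, and 0.0269 (reversed), 0.0773 and 0.0214 in Nkain4. Flank bins that overlap no protein-coding gene gave -0.198, -0.207 and -0.371 in Nkain1, -0.0744, -0.0588 and 0.00170 in Nkain2, -0.0620, -0.0510 and -0.0236 in Nkain3, and 0.0262 (reversed), 0.154 and 0.0252 in Nkain4. For Nkain1 and for Nkain4 these flanks were a single bin. Bins wholly inside the gene gave -0.0309, -0.0102 and 0.0266 in Nkain2, and -0.0216, 0.00686 and 0.0108 in Nkain3, the last pair reversed.

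In 5hmC, flanks of 1 Mb gave 0.00779 in olfactory bulb and 0.0305 in cerebellum for Nkain1, 0.0425, 0.0449 and -0.000974 in the 3 tissues for Nkain2, the last reversed, and -0.0103 in cortex and -0.0318 in olfactory bulb for Nkain4, both reversed. Weighting each bin by the length of Nkain2 in it moved its 5hmC difference to -0.137 from cortex to cerebellum and -0.113 from olfactory bulb to cerebellum. Weights by CpG sites moved no sum of the marks beyond its spread.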
